A study of Mus musculus with 4 samples.

Results

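Astrocytes, the star-shaped glia that take up glutamate and buffer ions and water around neurons, were followed in whole olfactory bulbs through 32 genes chosen by name. The members were rows of the deposited table whose symbol was on a list of astrocyte identity, homeostatic and reactive genes, 32 of 20032 rows, and every listed symbol was found. They were placed in 2 groups, 24 identity and homeostatic genes and 8 reactive genes (Gfap, Vim, Serpina3n, Cd44, Osmr, Steap4, S1pr3 and Timp1). RNA came from mouse bulbs at postnatal day 11 on a mixed background of C57BL/6J, 129S6 and CD1. The control group was 2 littermate samples without Cre, and the labels do not say which floxed alleles they carried. The mutant group, named DCKO, was 2 samples with Dlx5/6-CIE, Sp8 Flox/Flox and Sp9 Flox/Flox. Dlx5/6-CIE is a Cre transgene under a Dlx5/6 enhancer that is active in GABAergic precursors, so the deletion is aimed at the interneuron lineage and not at astrocytes. The deleted genes encode zinc finger factors that bulb interneurons need to mature. The labels do not say whether the 2 samples of a genotype came from separate animals, so the p-values measure only the spread between these samples, which may be technical. Values are FPKM, fragment counts divided by transcript length and library depth, 1 value per gene and library.

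Mature astrocytes are recognised by glutamate transporters, glutamine synthetase, the water channel Aqp4 at their endfeet on blood vessels and the connexins that join them into a network. After injury or loss of neurons they can become reactive, a state in which the intermediate filament genes Gfap and Vim and a set of secreted and membrane proteins are raised. Cytokines that signal through the gp130 receptor and the transcription factor Stat3 are known inducers of this state. In the olfactory bulb, astrocytes surround the glomeruli and lie throughout the granule cell layer, next to olfactory ensheathing cells that share some of their markers, such as S100b and Fabp7.

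The deposited scaled counts summed to between 14632502 and 15400982 per library. Both targeted genes were low in DCKO, with Sp8 at 31.96 and 26.7 FPKM in controls against 1.68 and 2.03 in DCKO, and Sp9 at 24.03 and 30.7 against 0.0674 and 0.236. The test was limma on log2(FPKM + 1) over 13434 genes (mean over the 4 libraries at or above 1 FPKM), two-sided, called at p below 0.05 after Benjamini-Hochberg adjustment, and log2 changes are DCKO minus control on that scale, which understates the change of low genes. Over all tested genes 1747 were called higher and 1926 lower in DCKO, and 2225 higher and 1580 lower after median centring, with a median log2 change of -0.0157. A single gene compared between groups of 2 libraries cannot reach an exact permutation p below 0.333. Control replicate 1 stood apart. The summed level of 5 olfactory epithelium genes was 284 FPKM there and 36.2, 46.8 and 37.4 in control replicate 2, DCKO replicate 1 and DCKO replicate 2. The summed level of 5 fibroblast genes was 289, 80.1, 146 and 187 FPKM in the same order of libraries.

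All 24 identity genes were detected in every library, the lowest being Ranbp3l at 1.88 FPKM in control replicate 2. Most of the astrocyte genes were higher in the DCKO bulbs and none was called lower. Of the 24 identity and homeostatic genes, 15 rose, and of the 7 reactive genes that passed the filter on low values, 5 were called higher. Cd44 passed that filter only through its DCKO libraries, so its call gives no support, and without it 4 of 6 rose. Steap4, the eighth, lay below the filter. In the background of all tested genes, 13.0% were called higher and 14.3% lower, 27.3% in either direction. Both DCKO libraries lay above both controls for 27 of the 32 members, none had both below, and 5 overlapped (Aldoc, Slc1a2, Slc7a10, Steap4 and Timp1). Over all tested genes both DCKO libraries lay above both controls for 33.9%, and the groups did not overlap in either direction for 71.5%. The median log2 change was 0.52 for the identity genes and 0.73 for the tested reactive genes. Summed over all 32 genes, the level was 4692 and 4640 FPKM in control libraries against 7438 and 6993 in DCKO libraries, which is 1.36% and 1.34% of the summed FPKM of a control library and 2.16% and 1.99% of that of a DCKO library. Fabp7 and Cst3 made up most of these sums, and without them the shares were 0.508% and 0.502% against 0.867% and 0.748%. In whole-bulb RNA, fewer or more cells of a type and less or more RNA per cell cannot be told apart. FPKM is relative to library depth, so a share also depends on the RNA of all other cells, whose part was not tested. Among neuron markers, Gad1 stood at 195 and 135 FPKM in control libraries against 18.3 and 30.9 in DCKO libraries. Slc17a7 of projection neurons stood at 345 and 379 FPKM in control libraries against 743 and 621 in DCKO libraries. The neuron markers Snap25, Syt1 and Tubb3 were not called (log2 changes 0.10, 0.07 and -0.26). The identity count was 10 without control replicate 1, 9 without control replicate 2, 11 without DCKO replicate 1 and 19 without DCKO replicate 2. The reactive count also changed with the library left out, and without control replicate 1 it included Cd44 and Timp1, so it gives no further support. The reactive median was 0.80 without control replicate 1 and 0.66 without control replicate 2. It was 0.79 without DCKO replicate 1 and 0.69 without DCKO replicate 2.

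**Figure D1:**
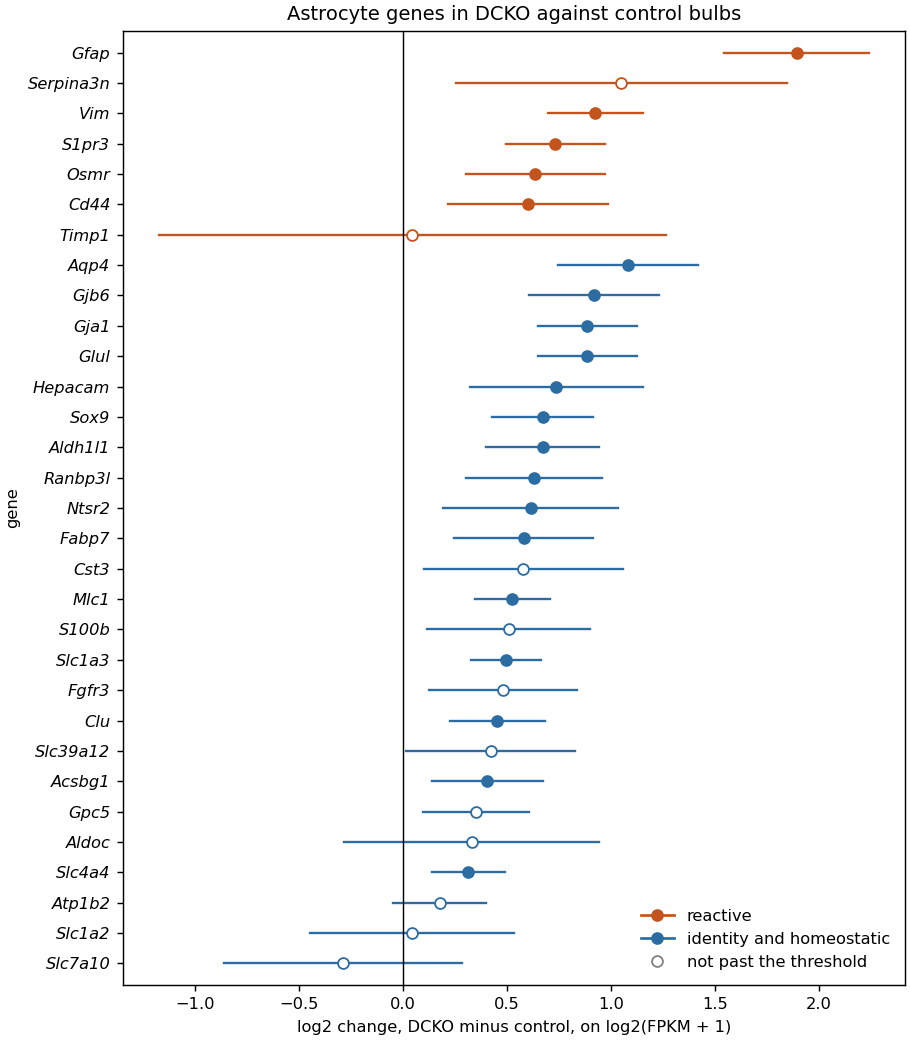
Log2 change (DCKO minus control, on log2(FPKM + 1)) of the 31 tested members, with bars for 95% confidence intervals and open points for genes not past the adjusted p threshold. Gfap lies at 1.89, to the right of every other member, and Slc7a10 at -0.29 is the only tested member below 0.

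Gfap, an intermediate filament gene that is raised in reactive astrocytes, showed the largest change among the tested members. Its level was 77.4 and 71.8 FPKM without Cre and 317 and 246 FPKM in the DCKO bulbs. Both DCKO libraries were far above both controls, and the mean moved from 74.6 ± 3.91 (SD, n = 2) to 282 ± 49.8 (SD, n = 2) FPKM, 3.77-fold higher (log2 change 1.89, SE 0.13, 95% confidence interval 1.54 to 2.24, limma adjusted p = 0.00241). This ranked 20 among the 13434 changes ordered from the highest. The Gfap call was kept under all 14 alternatives of the fit, with log2 changes from 1.71 to 2.07. No identity gene changed as much. Gfap lies at chr11:102887336-102900912 on the - strand (GRCm38, protein-coding), and the noncoding gene Gm26668 overlaps it on the other strand. The ratio of Gfap to Aldh1l1, an astrocyte enzyme gene, was 3.57 and 3.39 in the controls and 10.04 and 6.47 in DCKO, and the ratio of Gfap to the glutamate transporter Slc1a3 was 0.345 and 0.314 against 0.989 and 0.771. Gfap was thus higher in DCKO also relative to these 2 identity genes of the same library. The ratio of Vim to Aldh1l1 was 3.36 and 3.02 in the controls and 4.001 and 3.53 in DCKO, a smaller shift. Such ratios were not computed for the other reactive genes.

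Because Stat3 is a known inducer of Gfap, the promoter windows were searched for the letters TTCNNNGAA, the palindrome that STAT factors bind, on both strands. RefSeq windows (GRCm38.p6) from 250 bases before to 50 after a transcription start were found for 28 of the 32 members, 31 windows in all. The letters occurred in 6 of these 31 windows, 19.4%, against 8.3% of all 32851 windows of the same length. The 6 genes were Gfap, Steap4, Slc1a3, Acsbg1, Aldoc and Ntsr2. The windows of 3 of them are printed, since their changes ran from the largest among the members (Gfap) through a modest rise (Slc1a3) to a gene below the filter (Steap4). They lie at chr11:102897151-102897450 (- strand, Gfap), chr15:8710758-8711057 (- strand, Slc1a3) and chr5:7960222-7960521 (+ strand, Steap4), and capitals mark the match.
Gfap: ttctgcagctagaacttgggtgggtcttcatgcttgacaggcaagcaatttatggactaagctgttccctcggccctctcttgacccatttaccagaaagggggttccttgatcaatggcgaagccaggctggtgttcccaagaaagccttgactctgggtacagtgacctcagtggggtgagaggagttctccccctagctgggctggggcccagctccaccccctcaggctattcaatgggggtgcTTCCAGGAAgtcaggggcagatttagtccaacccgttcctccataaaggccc
Slc1a3: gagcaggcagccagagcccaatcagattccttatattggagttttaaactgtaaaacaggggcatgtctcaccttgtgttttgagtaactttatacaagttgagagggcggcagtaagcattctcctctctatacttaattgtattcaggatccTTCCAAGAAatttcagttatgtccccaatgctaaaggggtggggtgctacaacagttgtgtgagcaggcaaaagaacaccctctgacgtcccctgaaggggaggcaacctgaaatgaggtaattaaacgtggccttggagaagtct
Steap4: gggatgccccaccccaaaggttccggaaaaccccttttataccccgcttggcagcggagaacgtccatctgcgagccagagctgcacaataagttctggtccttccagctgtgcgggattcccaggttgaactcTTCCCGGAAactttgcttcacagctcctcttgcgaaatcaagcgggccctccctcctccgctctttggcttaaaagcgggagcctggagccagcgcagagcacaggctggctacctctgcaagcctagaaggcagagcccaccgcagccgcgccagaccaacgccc
The match begins 2 bases before the listed start in Gfap, 96 before it in Slc1a3 and 116 before it in Steap4. The letters were in windows of genes that rose and of genes that did not pass the test (Aldoc) or were too low to test (Steap4), and a match describes the sequence only. The letters of the AP-1 site, TGANTCA, were in the windows of Gja1 and Osmr, 6.45% of the member windows against 7.81% of all. The letters AACAAT, a core bound by SOX factors, were in those of Ranbp3l and Timp1, 6.45% against 10.7%. The NFI palindrome was in 0 of the 31 windows, against 0.0365% of all. All motifs were read on both strands, and matches of different motifs could overlap.

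The other filament gene of reactive astrocytes, Vim, and the receptor gene S1pr3 also rose. Vim stood at 72.7 and 63.9 FPKM in control libraries against 126 and 135 in DCKO libraries, with no overlap (1.91-fold, log2 change 0.92, SE 0.09, limma adjusted p = 0.00463). Vim is also made by endothelial cells and fibroblasts, and the level of markers of these cells is given below. S1pr3, a receptor for the lipid sphingosine-1-phosphate, stood at 6.09 and 5.46 FPKM in control libraries against 9.82 and 10.7 in DCKO libraries. Its groups were well separated, and it rose 1.77-fold (log2 change 0.73, SE 0.09, limma adjusted p = 0.00878).

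Osmr, the receptor subunit for oncostatin M, stood at 1.43 and 1.197 FPKM in control libraries against 2.73 and 2.46 in DCKO libraries (1.97-fold, log2 change 0.64, limma adjusted p = 0.0268). Cd44, the receptor for the matrix sugar hyaluronan, stood at 0.783 and 0.593 FPKM in control libraries against 1.62 and 1.49 in DCKO libraries (2.26-fold, log2 change 0.60, limma adjusted p = 0.0425). The groups did not overlap in either gene, both at low levels. The mean of Cd44 was 0.688 FPKM in the controls and 1.55 in DCKO, so it met the filter of 1 FPKM only where it was high, and its adjusted p is given as a description. The calls of both genes were lost without control replicate 2, DCKO replicate 1 or DCKO replicate 2. Their limma adjusted p over the 13 alternatives they entered ran from 0.00786 to 0.0889 for Osmr and from 0.0118 to 0.118 for Cd44.

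Serpina3n, Timp1 and Steap4 gave no call. Control replicate 1 was the higher control in all 8 reactive genes, the called ones included, whereas control replicate 2 was the higher one in 11 of the 24 identity genes. Serpina3n, a secreted protease inhibitor of reactive astrocytes, stood at 4.04 and 1.96 FPKM in control libraries against 8.58 and 5.67 in DCKO libraries, a 2.38-fold higher mean with a wide interval (log2 change 1.05, 95% confidence interval 0.25 to 1.85, limma adjusted p = 0.063). It was called higher without control replicate 1 (log2 change 1.43), and its adjusted p over 14 alternatives ran from 0.0111 to 0.209. Serpina3n belongs to a cluster of near-identical genes, and its level is uncertain where shared reads were split. Timp1, an inhibitor of matrix metalloproteases, stood at 3.68 and 0.734 FPKM in control libraries against 1.96 and 1.91 in DCKO libraries. The DCKO values lay between the controls, and the log2 change was 0.04 (95% confidence interval -1.18 to 1.26, limma adjusted p = 0.953). Timp1 turned with the control used: it was 0.76 and called higher without control replicate 1 and -0.67 and called lower without control replicate 2 (limma adjusted p from 0.0345 to 0.998 over its 13 alternatives). It lies on chromosome X (chrX:20870166-20874735, + strand, GRCm38) within the neuronal gene Syn1 on the other strand, and no source used here gives the strand setting of the counting. Steap4, a metalloreductase, stood at 0.45 and 0.059 FPKM in control libraries against 0.411 and 0.276 in DCKO libraries, from 28.2, 3.86, 26.4 and 17.3 scaled counts, and was not tested. The sums of the olfactory epithelium and fibroblast genes given above were also higher in control replicate 1 than in control replicate 2, and their part in the levels of the 8 reactive genes was not tested. All 5 olfactory epithelium genes were highest in control replicate 1, whereas among the fibroblast genes Dcn (44.5, 26.8, 61.4 and 60.6 FPKM) was highest in DCKO replicate 1 and Col3a1 (27.3, 14.2, 22.4 and 30.01 FPKM) in DCKO replicate 2.

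**Figure D2:**
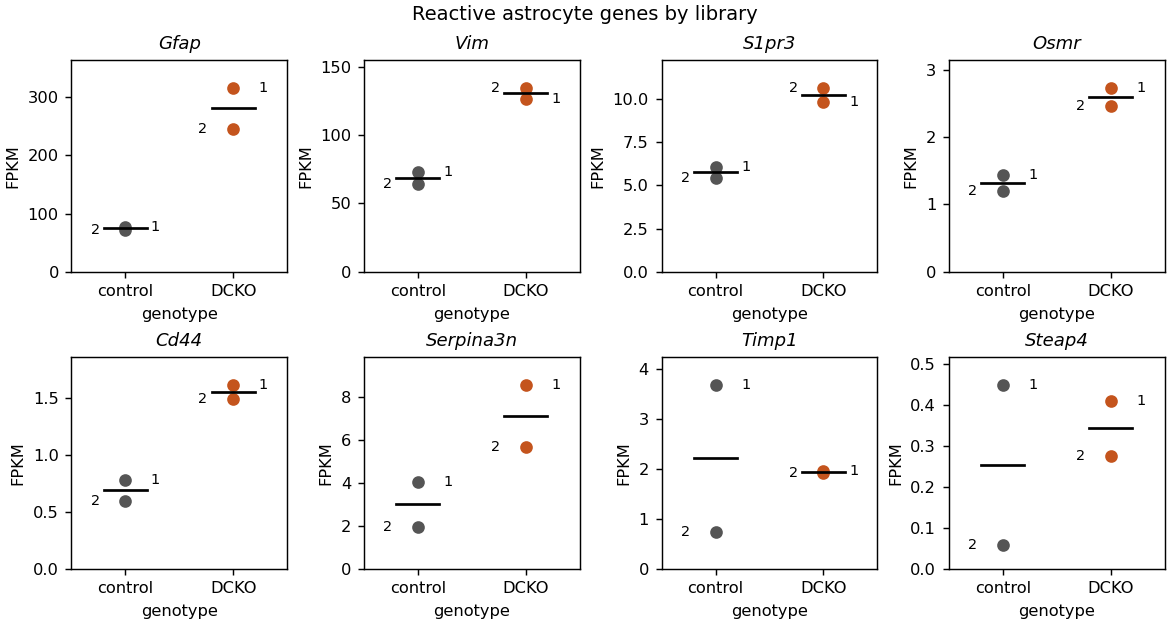
FPKM of the 8 reactive genes in each library, with bars for the group mean, the number beside each point giving the replicate and every axis starting at 0. Gfap, Vim, S1pr3, Osmr, Cd44 and Serpina3n are higher in both DCKO libraries than in both controls, while control replicate 1 is the highest library for Timp1 (3.68) and Steap4 (0.45).

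Genes of the endfoot and of gap junctions held the 3 largest increases among the identity genes. The third, Gja1, was practically level with Glul of glutamate handling (log2 changes 0.886 and 0.885). Aqp4, the water channel of the endfoot, stood at 38.7 and 39.8 FPKM in control libraries against 74.2 and 95.6 in DCKO libraries, a clear separation (mean 39.3 ± 0.778 to 84.9 ± 15.1, SD, n = 2 each, 2.16-fold, log2 change 1.08, SE 0.13, limma adjusted p = 0.00801). The gap junction genes Gja1 (connexin 43) and Gjb6 (connexin 30) rose by similar amounts. Gja1 stood at 97.2 and 84.4 FPKM in control libraries against 163 and 173 in DCKO libraries (1.85-fold, log2 change 0.89, limma adjusted p = 0.00583). Gjb6 stood at 17.4 and 13.8 FPKM in control libraries against 29.4 and 31.2 in DCKO libraries (1.94-fold, log2 change 0.92, limma adjusted p = 0.0097). Hepacam, an adhesion protein that holds the membrane protein Mlc1 at cell contacts, stood at 23.3 and 23.9 FPKM in control libraries against 47.1 and 33.8 in DCKO libraries (log2 change 0.74, limma adjusted p = 0.0314). Mlc1 itself rose from 79.5 and 76.3 FPKM to 116 and 109 (log2 change 0.53, limma adjusted p = 0.00978). The bicarbonate transporter Slc4a4 rose least, from 59.3 and 57.6 FPKM to 75.2 and 70.6 (log2 change 0.31, limma adjusted p = 0.0302), and its call was lost without control replicate 1, control replicate 2 or DCKO replicate 1. Atp1b2, the sodium pump subunit of glia, was not called at 155 and 152 FPKM against 185 and 163 (log2 change 0.18, 95% confidence interval -0.05 to 0.40).

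Glutamate handling did not move as a block. Glul, the enzyme that turns glutamate into glutamine, stood at 349 and 357 FPKM in control libraries against 695 and 612 in DCKO libraries (1.85-fold, log2 change 0.89, SE 0.09, limma adjusted p = 0.00582). Slc1a3, the glutamate transporter GLAST, was nearly the same within each genotype, reading 224 and 229 FPKM in control libraries against 320 and 319 in DCKO libraries (1.41-fold, log2 change 0.49, limma adjusted p = 0.00986). Its call was lost without either control, with log2 changes of 0.48 and 0.51. Slc1a2, the glutamate transporter GLT-1 that dominates in mature astrocytes, stood at 59.3 and 68.0 FPKM in control libraries against 78.9 and 54.3 in DCKO libraries. The 2 DCKO libraries lay on either side of the controls, and the log2 change was 0.04 (95% confidence interval -0.45 to 0.53, limma adjusted p = 0.879). The ratio of Slc1a3 to Slc1a2 was 3.79 and 3.37 in the controls and 4.06 and 5.89 in DCKO, with both DCKO libraries above both controls. Slc7a10, a transporter of serine and other small amino acids, was the tested member with a log2 change below 0, at 20.0 and 17.7 FPKM against 19.3 and 11.99 for DCKO (log2 change -0.29, 95% confidence interval -0.86 to 0.28). It overlaps Lrp3 on the other strand. Without DCKO replicate 1 Slc7a10 was called lower (-0.61), and without DCKO replicate 2 its log2 change was 0.03, with limma adjusted p from 0.0422 to 0.832 over the alternatives. The zinc transporter Slc39a12 was not called, at 9.36 and 9.55 FPKM against 15.3 and 11.0 (log2 change 0.42), and was called higher without DCKO replicate 2 (0.64, adjusted p from 0.0215 to 0.211 over the alternatives).

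Among metabolic enzymes, Aldh1l1 of folate metabolism rose from 21.7 and 21.2 FPKM to 31.6 and 38.1 (1.63-fold, log2 change 0.67, limma adjusted p = 0.014). The fatty acid enzyme Acsbg1 rose from 69.2 and 70.3 FPKM to 102 and 84.5 (log2 change 0.40, limma adjusted p = 0.0456), a call lost without either control or DCKO replicate 1. The glycolytic enzyme Aldoc stood at 173 and 183 FPKM in control libraries against 286 and 174 in DCKO libraries. Its DCKO libraries differed more from each other than the genotypes did, and it was called higher without DCKO replicate 2 (log2 change 0.69) and was at -0.03 without DCKO replicate 1, with limma adjusted p from 0.0194 to 0.784 over the alternatives.

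Of 4 genes of the astrocyte lineage, Sox9 and Fabp7 rose and Fgfr3 and S100b did not pass the test. Sox9, a transcription factor of astrocytes and their progenitors, stood at 4.91 and 5.26 FPKM in control libraries against 8.20 and 9.19 in DCKO libraries (1.71-fold, log2 change 0.67, SE 0.09, limma adjusted p = 0.0111). Fabp7, a fatty acid binding protein of radial glia, young astrocytes and olfactory ensheathing cells, had the highest level of all members. It stood at 1752 and 1782 FPKM in control libraries against 2387 and 2919 in DCKO libraries (log2 change 0.58, limma adjusted p = 0.0329). Its change was 0.13 after quantile normalization, and the call was lost there and without either control (limma adjusted p from 0.0205 to 0.349 over the alternatives). The growth factor receptor Fgfr3, at 13.5 and 13.4 FPKM against 21.9 and 16.6, and the calcium-binding protein S100b, at 21.7 and 26.2 against 38.9 and 30.4, were not called. Their groups did not overlap, and their log2 changes were 0.48 and 0.51. Fgfr3 was called higher without DCKO replicate 2 (0.67, limma adjusted p from 0.019 to 0.13 over the alternatives), and S100b without control replicate 2 (0.64) or DCKO replicate 2 (0.68, adjusted p from 0.0468 to 0.17). S100b overlaps Dip2a on the other strand.

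Of the remaining identity genes, the neurotensin receptor Ntsr2 rose from 17.9 and 14.4 FPKM to 28.6 and 21.99 (log2 change 0.61, limma adjusted p = 0.0492), a call lost without control replicate 2 or DCKO replicate 1. Ranbp3l, a nuclear protein that binds the transport GTPase Ran, rose from 2.36 and 1.88 FPKM to 3.63 and 3.9997 (log2 change 0.63, limma adjusted p = 0.0263), a call lost without control replicate 2 or either DCKO library. The secreted chaperone Clu rose from 122 and 116 FPKM to 174 and 152 (log2 change 0.45, limma adjusted p = 0.0241), a call lost without either control. Cst3, a secreted protease inhibitor that microglia also make, stood at 1188 and 1125 FPKM in control libraries against 2059 and 1445 in DCKO libraries and did not pass (log2 change 0.58, limma adjusted p = 0.0761). It was called without DCKO replicate 2 (log2 change 0.83), and its adjusted p ran from 0.0187 to 0.612. The cell surface proteoglycan Gpc5, at 7.76 and 7.06 FPKM against 10.4 and 9.10, also did not pass (log2 change 0.35, limma adjusted p = 0.0562), and it was called higher after each of the 3 other scalings.

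The DCKO libraries did not show the same astrocyte profile. Of the 24 identity genes, 17 were lower in DCKO replicate 2 than in DCKO replicate 1, with a median difference between the libraries of -0.18 on the log2 scale, whereas 59.4% of all tested genes were higher in DCKO replicate 2 and their median difference was 0.04. The 7 identity genes that were higher in DCKO replicate 2 were Sox9, Fabp7, Aldh1l1, Aqp4, Gja1, Gjb6 and Ranbp3l, and all 7 were called higher than the controls. Of the 17 others, 8 were called. As a percent of the control mean, Aqp4 was at 189 in DCKO replicate 1 and 243 in DCKO replicate 2, while Aldoc was at 161 and 98.1, Slc1a2 at 124 and 85.3 and Slc7a10 at 102 and 63.6. The 10 oligodendrocyte lineage markers were also all lower in DCKO replicate 2, with summed levels of 684 and 897 FPKM in control libraries against 1139 and 676 in DCKO libraries. Their part in the split of the identity genes was not tested.

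**Figure D3:**
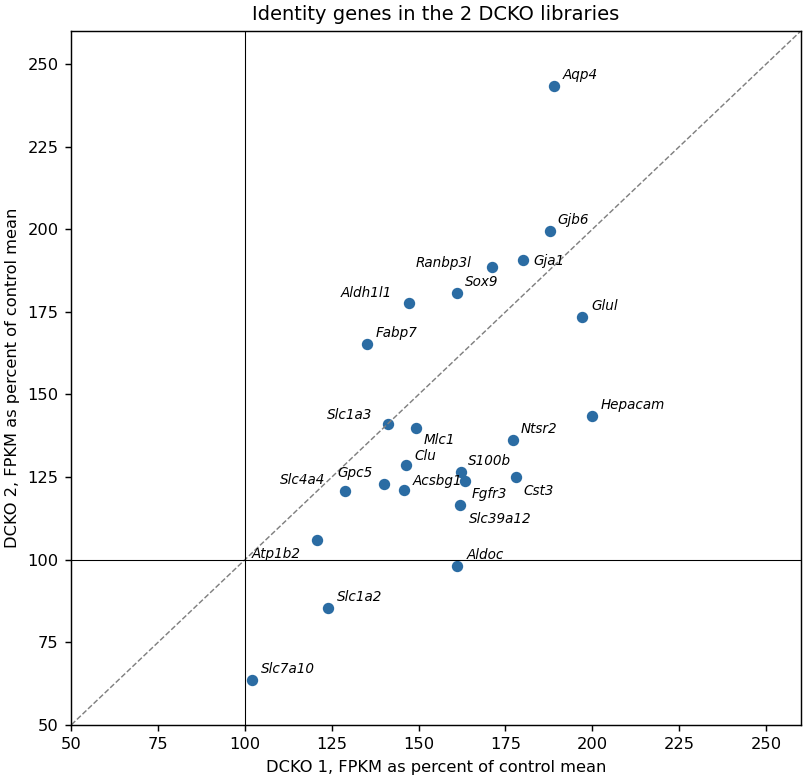
Level of each of the 24 identity genes in DCKO replicate 1 (x) and DCKO replicate 2 (y), as a percent of the control mean FPKM, with solid lines at the control mean and a dashed line where both libraries are equal. The 7 genes above the dashed line include Aqp4 (189 and 243), and Aldoc, Slc1a2 and Slc7a10 lie below 100 in DCKO replicate 2.

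The median change of the reactive genes lay above that of the identity genes. The margin changed with the pseudocount, the filter, the use of scaled counts and the genes and libraries included. The median log2 change was 0.73 over the 7 tested reactive genes and 0.52 over the 24 identity genes, a difference of 0.21, and this quantity had a spread between replicates of 0.16 (SD within genotypes). The 2 sets overlapped: 6 of the 7 tested reactive genes lay above the identity median, and 5 of the 24 identity genes (Aqp4, Gjb6, Gja1, Glul and Hepacam) lay above the reactive median. Over all tested genes 10.4% had a change at or above the identity median and 4.35% at or above the reactive median. Relative to each gene's control mean, the identity median was 0.58 in DCKO replicate 1 and 0.39 in DCKO replicate 2, and the reactive median was 0.69 and 0.79, so the gap was wider in DCKO replicate 2. With Gfap and Vim counted as identity genes the difference was 0.08. Without Cd44 it was 0.31. With a pseudocount of 0.1, which weighs low genes more, it was 0.41. With the filter at 5 FPKM the difference was 0.48, and on scaled counts 0.45. It was 0.39 without DCKO replicate 1 and 0.11 without DCKO replicate 2. Within each library, the mean log2(FPKM + 1) of the 7 tested reactive genes was also set against that of the 24 identity genes. The reactive mean minus the identity mean was -2.53 and -2.92 in the controls and -2.43 and -2.38 in DCKO. Control replicate 1 thus lay nearer to both DCKO libraries than to control replicate 2 in this measure. No test was made of either difference, since the members were chosen with results of these data known.

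**Figure D4:**
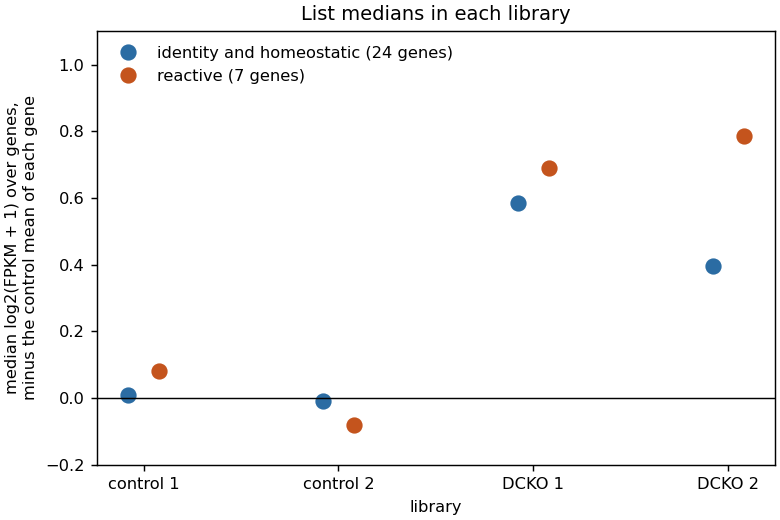
Median over the 24 identity and 7 tested reactive genes of log2(FPKM + 1) minus each gene's control mean, in each library. The reactive median is above the identity median in both DCKO libraries, 0.69 against 0.58 in replicate 1 and 0.79 against 0.39 in replicate 2.

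Further astrocyte genes outside the members moved less uniformly. Of 20 such genes, all tested, 6 were called higher and 2 lower, with a median log2 change of 0.39. The shares called higher and lower over all tested genes were 13.0% and 14.3%. Entpd2, an enzyme that breaks down extracellular ATP, rose from 11.8 and 11.5 FPKM to 25.3 and 17.1 (log2 change 0.79), and Ndrg2, a cytoplasmic astrocyte marker, rose from 153 and 158 FPKM to 269 and 202 (log2 change 0.58). Il33, a nuclear cytokine of glia, was called lower at 4.53 and 2.48 FPKM against 0.802 and 0.888 (log2 change -1.25, limma adjusted p = 0.0239), and it met the filter only through its controls. The calls of Ndrg2 without either control, of Entpd2 without control replicate 2 and of Il33 without either DCKO library were lost. With 1 library left out the number that rose was 2 and 1 without control replicates 1 and 2, and 7 and 10 without DCKO replicates 1 and 2. Of 7 endfoot genes, 4 rose and none fell. The dystrobrevin Dtna rose from 15.2 and 15.6 FPKM to 27.3 and 22.7 (log2 change 0.66, limma adjusted p = 0.0139), and the potassium channel Kcnj10 (log2 change 0.42) and dystrophin Dmd (0.39) rose too. The Kcnj10 call was lost without either control and the Dmd call without any 1 of the 4 libraries, and 1 endfoot gene was called without control replicate 1 and 1 without control replicate 2.

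Of 10 transcription factors listed for the astrocyte lineage and its progenitors, 9 were tested, 3 rose and none fell, with a median of 0.32. For this list and the next, the shares over all tested genes were 13.0% higher and 14.3% lower. Id3, an inhibitor of differentiation factors and a target of BMP signalling, had the largest change, from 68.3 and 61.7 FPKM to 181 and 176 (2.75-fold, log2 change 1.45, SE 0.08, limma adjusted p = 0.00119). Nfia, which starts gliogenesis, rose from 3.65 and 3.36 FPKM to 6.54 and 7.36 (log2 change 0.82), and the Notch target Hes5 rose from 42.3 and 46.6 to 60.4 and 79.2 (0.63), a call lost without control replicate 1. Of 8 genes of the glutamine shuttle and glutamate metabolism, 2 rose and 2 fell. The glutamine transporter Slc38a3 rose from 96.8 and 96.5 FPKM to 132 and 133 (log2 change 0.45) and glutamate dehydrogenase Glud1 from 104 and 106 to 140 and 132 (0.38), and both calls were lost without either control, which left 0 called higher. The transaminase Got1 fell from 84.3 and 89.98 FPKM to 53.6 and 54.4 (log2 change -0.68, limma adjusted p = 0.00496).

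Reactive genes outside the members were called in both directions, where 13.0% of all tested genes were called higher and 14.3% lower. Of 5 further genes common to reactive states, 3 were tested and 1 rose, the copper-binding oxidase ceruloplasmin (Cp), from 3.01 and 2.59 FPKM to 6.10 and 6.16 (log2 change 0.91, limma adjusted p = 0.00672). Of 11 genes reported in astrocytes after lipopolysaccharide, 10 were tested, 4 were called higher and 2 lower. The glycosyltransferase Ggta1 rose from 1.45 and 1.45 FPKM to 3.43 and 3.89 (log2 change 0.93), and the proteoglycan Srgn, which immune cells also make, rose from 4.83 and 3.40 to 8.40 and 8.83 (0.92), a call lost without either DCKO library. The adhesion gene Amigo2 fell from 6.70 and 6.82 FPKM to 1.28 and 1.68 (log2 change -1.65, limma adjusted p = 0.00253). Of 12 genes reported after ischaemia, 8 were tested, 2 rose and none fell. They were the cytokine Clcf1 (0.998) and the pattern recognition protein Ptx3 (0.71), the latter lost without either control. The counts called higher became 2 for the common reactive genes without control replicate 1 and 1 for the ischaemia genes without control replicate 2, and the genes called lower after lipopolysaccharide became 1 without DCKO replicate 2.

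In the gp130 pathway, 1 ligand, 1 receptor and Stat3 were called higher and Jak2 lower. Over all tested genes 13.0% were called higher and 14.3% lower. The 5 kinases and factors of its relay had a median log2 change of 0.02, and Socs3 among them was not called (log2 change -0.05). Clcf1, a gp130 cytokine, rose from 1.98 and 1.87 FPKM to 3.85 and 6.06 (limma adjusted p = 0.0253), and was the called gene of the 2 ligands that passed the filter, of 6 listed. Lifr, the receptor subunit for leukemia inhibitory factor, rose from 4.37 and 4.17 FPKM to 7.999 and 6.96 (log2 change 0.68, limma adjusted p = 0.0122) and was the called gene among 5 receptor genes. In the relay of 5 kinases and factors, Stat3 was called higher (17.9 and 18.1 FPKM against 21.8 and 21.9, log2 change 0.26), a call lost without any 1 of the 4 libraries. Jak2 was called lower (log2 change -0.39), a call lost without either control or DCKO replicate 1. The calls of Clcf1, Lifr, Cp, Id3, Nfia, Dtna, Ggta1, Got1 and Amigo2 were kept without each single library. Both tested ligands were called without control replicate 1, and 3 receptor genes without DCKO replicate 2.

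**Figure D5:**
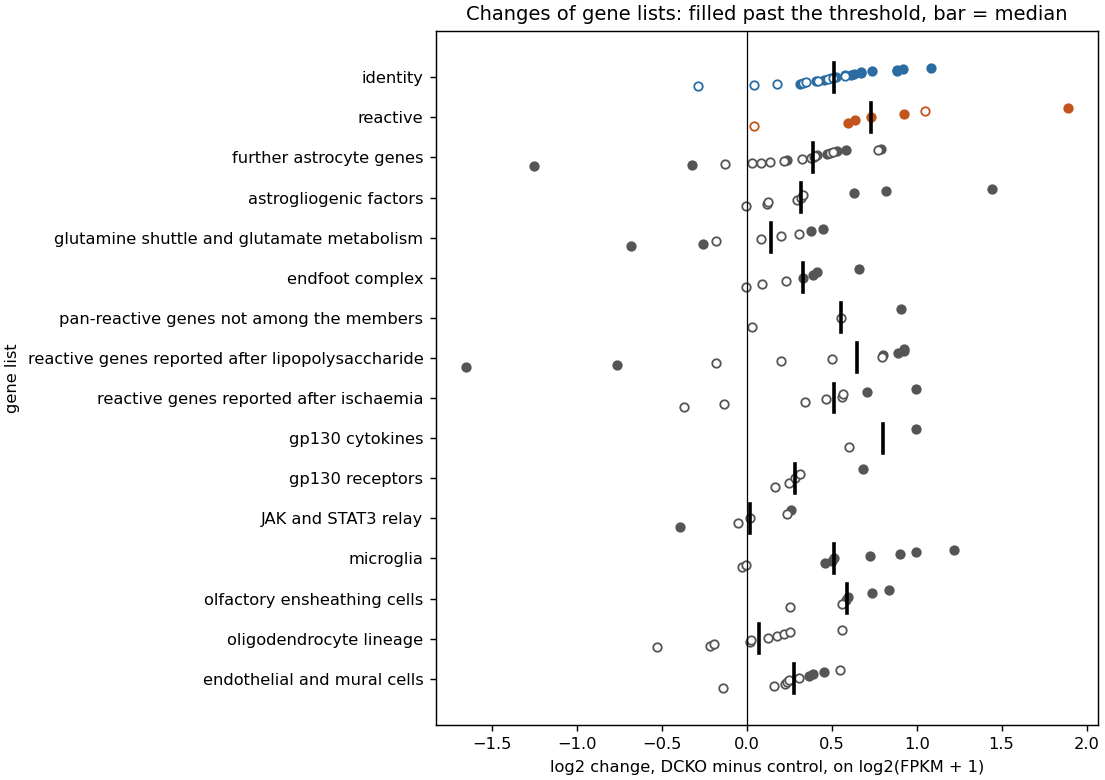
Log2 change (DCKO minus control, on log2(FPKM + 1)) of each tested gene in 16 lists, with filled points past the adjusted p threshold and a bar at the list median. The medians are 0.52 for identity and 0.73 for reactive genes, 0.51 for microglia and 0.07 for oligodendrocyte lineage markers.

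Markers of other cells that share genes with astrocytes moved with genotype to different degrees. For scale, 13.0% of all tested genes were called higher and 14.3% lower. Of 10 microglia markers, 9 were tested and 7 rose, among them the complement genes C1qb (log2 change 1.22) and C1qa (0.90) and the phagocytic receptor Trem2 (0.996). The 2 not called were P2ry12, at 14.7 and 14.1 FPKM against 14.4 and 13.8 (-0.03), and Tmem119, at 7.58 and 5.995 against 7.36 and 6.13 (-0.004). The summed level of the 10 markers was 126 and 124 FPKM in control libraries against 192 and 205 in DCKO libraries. The number of microglia markers called was 4 without control replicate 2 and 5 without control replicate 1. Of 6 olfactory ensheathing cell markers, 4 rose, among them the neurotrophin receptor Ngfr (0.84), the peptide Npy (0.74), which interneurons also make, and the neuregulin receptor Erbb3 (0.60). Their sum was 605 and 656 FPKM in control libraries against 988 and 994 in DCKO libraries. The Npy call was lost without control replicate 1 and the Erbb3 call without control replicate 2 or DCKO replicate 1. Of 10 endothelial and mural markers 3 rose, the mural receptor Pdgfrb (0.45) and the endothelial genes Tie1 (0.39) and Cldn5 (0.37). Their sum was 275 and 262 FPKM against 305 and 344, and all 3 calls were lost without either control, those of Pdgfrb and Tie1 also without DCKO replicate 2, while 5 markers were called without DCKO replicate 1. None of the 10 oligodendrocyte lineage markers and none of the 5 fibroblast markers was called in limma. Without control replicate 1, however, 4 fibroblast markers were called higher, and without control replicate 2, 2 were called lower. Without DCKO replicate 1, 1 oligodendrocyte marker was called lower, and without DCKO replicate 2, 1 was called higher. No marker of these lists was at 0 in every library. The part of these cells in the levels of shared genes such as Fabp7, S100b, Vim and Cst3 was not tested. Of 6 neuron markers, Gad1 (-2.72) and the granule cell gene Rbfox3 (-2.59) fell and Slc17a7 of projection neurons rose (0.91). Snap25 (0.10), Syt1 (0.07) and Tubb3 (-0.26) were not called.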

How the data were processed

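Total RNA of 4 bulb libraries, 2 per genotype, was sequenced. The submitters' processing notes name TopHat without a version, Cufflinks 2.1.1 and the build GRCm38.p4; for the annotation and strand setting the sources used here give nothing. The authors deposited FPKM values. The columns headed count were treated as a signal the authors scaled by 1 factor per library, so no count model was used. Columns were mapped by the sample codes in the labels, and 0 were left over. The main fit used limma 3.58.1 in R 4.3.3 with an intensity trend and a pseudocount of 1 (prior degrees of freedom 2.91), after it was tested on simulated data. At an unadjusted p below 0.05, 5790 genes passed. Alternatives covered the pseudocount, the filter, scaling, variance model, replicate block, single libraries, scaled counts and the grouping of members. All members are named, and of other lists up to 3 called genes of largest change, or the 2 of highest mean where none was called. A few genes that were not called are named beside them. The members, lists and rules were chosen with earlier results of these data known. Coordinates are from GENCODE M21. Of the 32 members, 12 overlap a gene on the other strand, and without a strand setting their reads cannot be told apart.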

Additional observations from a re-analysis of the deposited data

How the results depend on the processing

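Of the 20 called members, 10 kept their call and direction under all 14 alternatives (7 identity genes and Gfap, Vim and S1pr3), and of 430 recomputed member values 366 kept their direction and side of the threshold, 41 lost and 17 gained a call and 6 changed sign. Identity genes called higher numbered 9 with no filter, and 9 to 19 when 1 library was left out (0 to 1 lower). Reactive genes called higher numbered 3 with a filter at 5 FPKM, where fewer were tested, 3 with Gfap and Vim counted as identity genes, and 3 to 7 when 1 library was left out (0 to 1 lower). All tested genes numbered 806 to 1384 higher and 1030 to 1875 lower when 1 library was left out. In these fits a lone sample is assumed to vary like the other group, and the highest reactive count includes Cd44 and Timp1. The reactive median was 0.93 with a pseudocount of 0.1, 0.99 with the filter at 5 FPKM, 0.96 on scaled counts, 0.64 with Gfap and Vim moved, 0.83 without Cd44 (an alternative chosen after seeing the data) and 0.66 to 0.80 without 1 library. The identity median was 0.39 to 0.58 without 1 library. The difference of medians was 0.41, 0.48 and 0.45 for the first 3 of these settings and 0.11 to 0.39 without 1 library. When 1 library was left out, log2 changes of 4 members spanned 0: Aldoc from -0.0276 to 0.686 (without DCKO replicates 1 and 2), Slc1a2 from -0.222 to 0.309 (the same libraries, and -0.0544 without control replicate 1), Slc7a10 from -0.609 to 0.0312 (the same) and Timp1 from -0.674 to 0.76 (without control replicates 2 and 1). Timp1 was at -0.00143 with quantile normalization. The cause was not tested. Replicate numbers only name samples: the difference between replicates 1 and 2 correlated at -0.0211 between genotypes across 13434 genes, and with the replicate block 11 identity and 4 reactive genes were called higher.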

Other observations

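A few other genes of the astrocyte lists are named here after their values were seen. Slc6a11, the GABA transporter of astrocytes, fell from 196 and 197 FPKM to 162 and 152 (log2 change -0.32, limma adjusted p = 0.0301), a call lost without either control. The mitochondrial transaminase Got2 fell from 88.1 and 85.2 FPKM to 73.4 and 71.2 (log2 change -0.26, limma adjusted p = 0.0408), a call lost without any 1 of the 4 libraries. Iigp1, an interferon-induced GTPase, was called lower at 1.81 and 1.71 FPKM against 0.705 and 0.549 (log2 change -0.76, limma adjusted p = 0.0221). It met the filter only through its controls, and the call was lost without DCKO replicate 2. H2-T23, another interferon-responsive gene of the same list, rose from 2.41 and 2.58 FPKM to 5.56 and 5.40 (log2 change 0.89, limma adjusted p = 0.00615). Ptgs2, the inducible cyclooxygenase that neurons also express with activity, was too low to be tested and read 1.80 and 1.60 FPKM in control libraries against 0.125 and 0.0845 in DCKO libraries. The chemokine Cxcl10, also untested, read 0.127 and 0.0592 FPKM in control libraries against 0.975 and 0.526 in DCKO libraries.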
